A study of Mus musculus with 9 samples.

Results

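A group of 10 long noncoding RNAs was examined in the postnatal retina: Malat1, Neat1, Miat and Tug1, which are known from the nucleus of many cells, and Six3os1, Vax2os, Rmst, Pantr1, Dlx6os1 and Snhg11, which are known from the retina and brain. The rows were found by gene symbol, and the list of symbols was drawn up with earlier results of these data known. The 10 RNAs filled 11 of the 55487 rows of the gene table, because 2 annotated genes carry the symbol Dlx6os1. Of these rows, 9 belonged to the 21330 that reached 0.5 CPM (counts per 1000000 reads) in at least 3 libraries and entered the tests, and both Dlx6os1 rows did not.

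Whole retinas of C57 BL/6J mice were collected on postnatal day 21 (P21). Cre- mice, with the genotype label WT, carried no Cre transgene and came from Cre- breeders. tHet mice were Tet1 loxp/+, Tet2 loxp/+ and Tet3 loxp/+ with the Chx10::Cre-GFP transgene, and Tet tcKO mice were Tet1 loxp/loxp, Tet2 loxp/loxp and Tet3 loxp/loxp with the same transgene. The transgene is driven by the promoter of Chx10 in retinal progenitors, is known to be mosaic, and was bred so that tHet and Tet tcKO animals all had a second copy of it. Vessels, microglia and pigment epithelium do not derive from these progenitors and keep their alleles. Each genotype had 3 libraries, each from the retinas of 2 animals. Because Cre- animals came from other breeders, genotype and breeding cannot be told apart in comparisons with them.

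Long noncoding RNAs are transcribed and processed much like messenger RNAs but are not translated into a protein, and many stay in the nucleus. Neat1 is the scaffold of paraspeckles, Malat1 collects in nuclear speckles, and Miat forms a nuclear domain of its own in neurons. Others are named for a developmental transcription factor beside them: Six3os1 and Vax2os are transcribed from the opposite strand next to Six3 and Vax2, which pattern the eye, and Pantr1 starts next to Pou3f3. TET enzymes oxidise methylated cytosine, which in most cells sits in CpG dinucleotides, so the question put to these RNAs was whether their levels differ in retinas in which all of the Tet genes were floxed and recombined.

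Between 9627927 and 21108256 reads per library were counted on genes, so that 1 read was worth 0.0474 to 0.104 CPM. In the library of Tet tcKO replicate 3, the ribosomal RNA gene CT010467.1 held 287246 CPM, against 37211 CPM in tHet replicate 3 and 409 to 2261 CPM in the other 7 libraries, which lowers every other CPM value of that library. Leaving this gene out moved the median log2 fold change (log2FC) of all tested genes between Tet tcKO and Cre- from 0.0012 to 0.14. Reads of whole genes do not isolate the floxed exons: Tet3 was at 99.2 to 152 CPM in Tet tcKO and 213 to 268 CPM in Cre-, whereas the Tet1 ranges (51.0 to 74.9 and 51.7 to 57.6 CPM) and Tet2 ranges (152 to 221 and 113 to 188 CPM) overlapped. Defining markers of the retina were present, with the summed rod markers (Nrl, Nr2e3, Gnat1, Sag and Cnga1) at 11410.1 to 13240 CPM in Cre- and 2414 to 4835 CPM in Tet tcKO.

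Among the 9 RNAs tested, Vax2os was lower in Tet tcKO than in both other genotypes, and it was the only one to pass the test. A gene was called at an absolute log2FC of at least 1 and a Benjamini-Hochberg adjusted p under 0.01, from limma on log2(CPM + 0.5) over all tested genes. Of all genes, 3.6% were called between Tet tcKO and Cre- 2.03% higher and 1.57% lower, so that 1 of 9 is to be read against such a background. Miat, Six3os1 and Rmst had no Tet tcKO library as low as any of Cre- and did not pass the test. The libraries of 19.6% of all genes did not overlap in this comparison, 10% with Tet tcKO above and 9.6% with it below. Malat1, Neat1, Tug1 and Snhg11 had overlapping libraries, and Pantr1 was lower at a level of a few reads. The median log2FC of the 9 RNAs was −0.16, with 4 above and 5 below 0, beside a median of −0.042 over 2828 other genes of long noncoding types, which ran from −0.22 to 0.11 over scalings and left-out libraries and was 0.069 with CT010467.1 left out. Of those genes, 58 were called higher and 45 lower, or 3.64%. With CT010467.1 left out, 835 genes in all were called, 613 higher and 222 lower, against 434 higher and 334 lower with it.

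**Figure D1:**
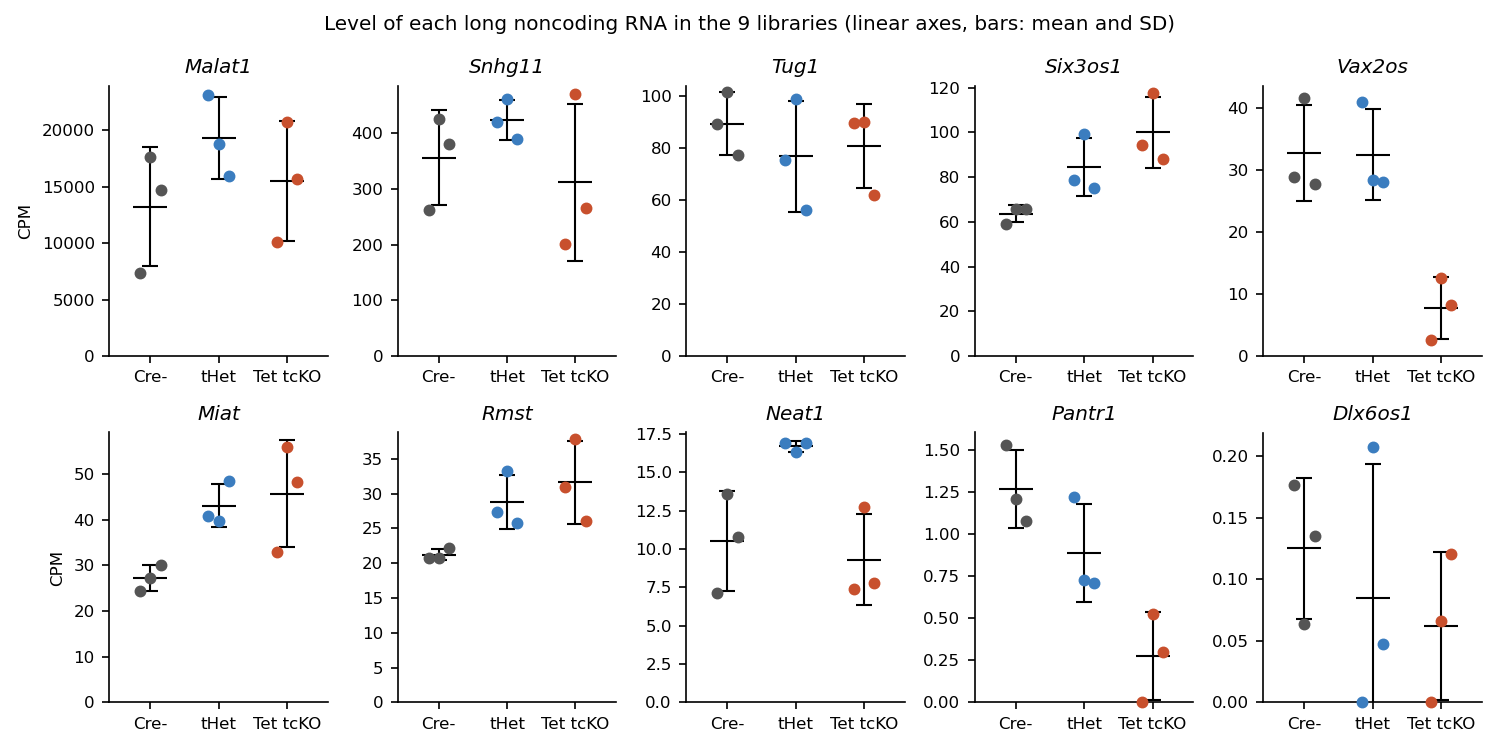
Level of each of the 10 long noncoding RNAs in CPM on linear axes, with 1 point per library, and the mean and SD of the 3 libraries of each genotype as black bars. The 3 Tet tcKO points of Vax2os lie between 2.61 and 12.5 CPM, below all other libraries, which lie between 27.7 and 41.6 CPM.

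Vax2os lies on chromosome 6 at chr6:83692806-83712201 on the minus strand (GRCm38) and is annotated as antisense, with 5406 bases of exon. It is a retinal RNA known from the ventral retina and from photoreceptor progenitors. Vax2, the homeobox gene of the ventral retina, is transcribed from the opposite strand, and the starts of both genes are 937 bases apart with no shared exonic base. Below are the windows around its 2 start sites in the RefSeq promoter table (GRCm38.p6), each with 250 bases before and 50 after the start, 5′ to 3′ on the strand of the gene, with CpG dinucleotides in capitals. The first window lies at chr6:83712152-83712451 and the second at chr6:83710776-83711075, and they are shown because Vax2os is the RNA that fell.
Vax2os start 1: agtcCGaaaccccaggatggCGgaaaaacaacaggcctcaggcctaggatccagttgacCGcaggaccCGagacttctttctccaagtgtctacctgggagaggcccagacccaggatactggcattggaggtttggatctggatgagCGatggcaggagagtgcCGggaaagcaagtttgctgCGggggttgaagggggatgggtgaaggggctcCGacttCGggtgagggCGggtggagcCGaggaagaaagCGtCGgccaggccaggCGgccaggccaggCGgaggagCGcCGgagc
Vax2os start 2: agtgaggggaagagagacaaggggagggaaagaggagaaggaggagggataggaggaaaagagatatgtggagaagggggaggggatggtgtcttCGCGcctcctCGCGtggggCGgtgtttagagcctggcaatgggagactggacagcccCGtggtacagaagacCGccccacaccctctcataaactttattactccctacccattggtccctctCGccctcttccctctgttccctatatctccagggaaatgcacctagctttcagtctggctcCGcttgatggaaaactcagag

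The first window held 17 CpG dinucleotides, a number reached by 31.4% of 32807 windows of the same length in the table. The second held 9, which 45.8% of windows reached. The motif CG reads the same on both strands, and 94.6% of windows held at least 1. Methylation at these sites was not analysed here.

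Vax2os stood at 28.8, 41.6 and 27.7 CPM in the Cre- libraries and at 41.0, 28.4 and 28.1 CPM in the tHet libraries. In Tet tcKO it stood at 2.61, 12.5 and 8.19 CPM, from 44, 190 and 136 reads. Every Tet tcKO library was below every other library, and Cre- and tHet overlapped. The mean was 32.7 ± 7.73 CPM (SD, n = 3) in Cre- and fell to 7.77 ± 4.97 CPM in Tet tcKO. The log2FC was −2.21 ± 0.37 (SE, limma adjusted p = 0.00053). Against tHet (32.5 ± 7.36 CPM), the log2FC was −2.20 ± 0.37 (limma adjusted p = 0.00062). Between tHet and Cre- it was −0.01, with a 95% interval of −0.77 to 0.76. Without Tet tcKO replicate 3, the log2FC was −2.36 against Cre- (limma adjusted p = 0.0162) and −2.35 against tHet (adjusted p = 0.0191), which no longer passes the threshold of 0.01. With CT010467.1 left out, the comparison with tHet gave −2.06 and an adjusted p of 0.0115, and the comparison with Cre- still passed. Among the 2828 other long noncoding genes, 0.424% had a lower log2FC against Cre-.

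Across the 9 libraries, the levels nearest in pattern to Vax2os were those of Ccdc180, Gm16055 and Grtp1, of 17429 genes with a mean of at least 1 CPM. Their root-mean-square differences from Vax2os were 0.213, 0.241 and 0.251 on the centred log2(CPM + 0.5) scale. Grtp1 stood at 65.6 to 92.3 CPM in Cre-, 59.5 to 85.7 CPM in tHet, and 9.14, 25.8 and 14.3 CPM in Tet tcKO replicates 1, 2 and 3. Ccdc180 stood at 5.71 to 7.06 CPM in Cre- and at 0.238, 2.17 and 1.02 CPM in Tet tcKO. Gm16055, an antisense RNA, stood at 8.89 to 11.96 CPM in Cre- and at 0.238, 4.09 and 1.57 CPM in Tet tcKO. The genes were picked for this likeness over the same 9 libraries, so their lower levels in Tet tcKO are no separate finding.

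The summed rod markers stood at 2414, 4835 and 2851 CPM in Tet tcKO replicates 1, 2 and 3. They were 3.73-fold lower in Tet tcKO than in Cre- by their means, with 4 of 5 genes called lower, and Vax2os was 4.21-fold lower by its means. Per 1000 CPM of rod markers, Vax2os stood at 2.18 to 3.19 CPM in Cre-, 2.45 to 3.22 CPM in tHet and 1.08 to 2.87 CPM in Tet tcKO. The 3 genotypes overlapped on this scale, and the lowest Tet tcKO library lay below all Cre- and tHet libraries. Whether the fall of the rod markers has a part in that of Vax2os was not tested, and in whole retinas fewer cells of a type and less RNA per cell cannot be told apart. Other marker sums also moved with genotype. In Tet tcKO and Cre-, the sums did not overlap for pigment epithelium (0.311 times the Cre- mean), endothelium (0.370 times), progenitor (2.51 times) and microglia markers (2.08 times). The cone markers were at 915 to 1294 CPM in Tet tcKO and 464 to 597 CPM in Cre-, with 3 of 6 genes called higher and 1 called lower, and the Muller glia markers were at 628 to 986 CPM and 1330 to 1766 CPM.

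**Figure D2:**
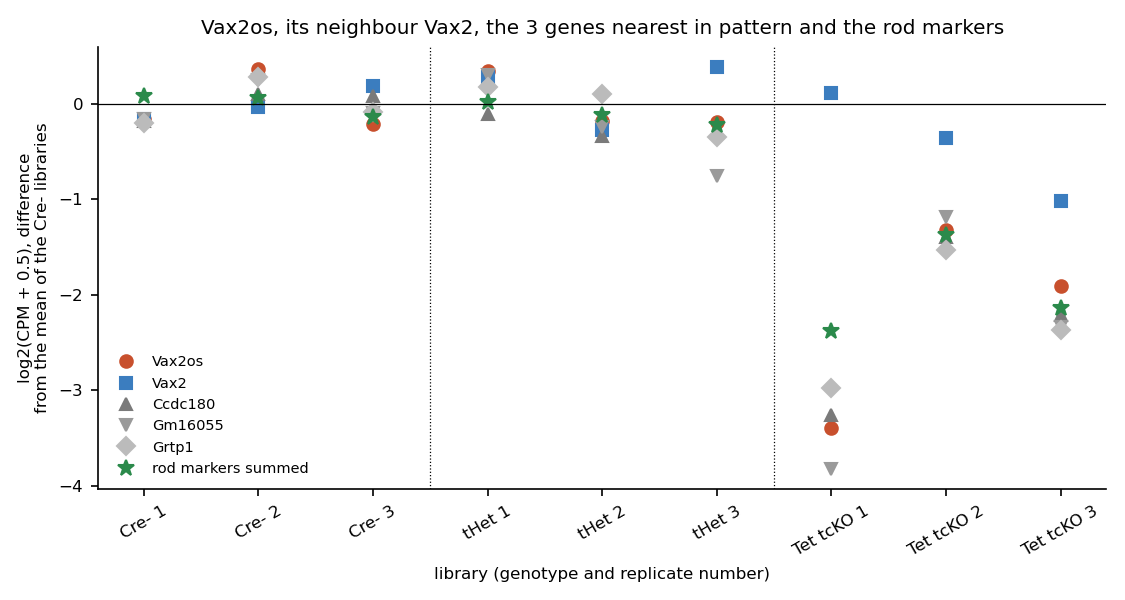
Difference of log2(CPM + 0.5) from the mean of the Cre- libraries for Vax2os, Vax2, the 3 genes nearest to Vax2os in pattern and the sum of 5 rod markers, in each of the 9 libraries. Vax2os, the 3 genes and the rod markers are lower in all 3 Tet tcKO libraries, while Vax2 in replicate 1 is near the Cre- mean.

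Vax2 itself was not called. It stood at 8.65, 9.54 and 11.2 CPM in Cre-, 11.95, 7.998 and 12.9 CPM in tHet, and 10.6, 7.51 and 4.58 CPM in Tet tcKO. Its log2FC against Cre- was −0.42 (limma adjusted p = 0.626). The Tet tcKO library with the least Vax2os, replicate 1, had the most Vax2 of the 3. Whether the change of Vax2os differs from that of Vax2 was not tested. The counting of the deposited table did not separate the strands: of 252 genes whose exons lie wholly under exons of the opposite strand, 1.19% had any read, against 75.3% of 37069 genes of the same types with no exon overlap. Reads over bases shared with another gene were therefore not counted, and reads from an intron of Vax2 that cross an exon of Vax2os cannot be told apart from Vax2os.

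Six3os1 was the most abundant of the 3 RNAs whose Tet tcKO libraries all lay above those of Cre-. It lies at chr17:85600651-85618398 on the minus strand (GRCm38), has 11884 bases of exon, and works with Six3, a transcription factor of the eye field, in retinal development. Its RefSeq promoter window, chr17:85618347-85618646, is given 5′ to 3′ on the minus strand with CpG dinucleotides in capitals, beside those of Vax2os.
Six3os1 start: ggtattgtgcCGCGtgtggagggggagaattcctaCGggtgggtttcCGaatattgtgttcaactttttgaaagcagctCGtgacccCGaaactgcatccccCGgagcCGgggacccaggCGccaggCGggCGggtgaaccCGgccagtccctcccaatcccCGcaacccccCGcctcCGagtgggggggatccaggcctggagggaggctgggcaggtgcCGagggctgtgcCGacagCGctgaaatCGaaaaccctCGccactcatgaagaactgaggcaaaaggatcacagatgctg

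The window held 20 CpG dinucleotides, which 26.5% of windows reached. Of the 10 RNAs, 7 matched the promoter table. Their windows held between 3 CpG dinucleotides, at a start of Dlx6os1, and 37, at the start of Tug1, beside a median of 7 over all windows.

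Six3os1 stood at 59.1, 65.9 and 65.7 CPM in Cre-, at 78.6, 99.2 and 75.2 CPM in tHet, and at 94.3, 118 and 87.9 CPM in Tet tcKO. The Cre- libraries lay below all 6 others, and tHet and Tet tcKO overlapped. The log2FC was 0.64 ± 0.21 (SE) between Tet tcKO and Cre- (limma adjusted p = 0.0748), 0.24 between Tet tcKO and tHet, and 0.40 between tHet and Cre-. The fold of 1.56 is under the threshold, so Six3os1 was not called under any alternative, although the adjusted p against Cre- was 0.0076 with TMM scaling, 0.0045 with CT010467.1 left out, 0.0088 in edgeR and 0.00037 in DESeq2. Six3, which shares 106 exonic bases with it, stood at 66.4 to 80.5 CPM in Cre- and 58.8 to 96.4 CPM in Tet tcKO. Its log2FC was 0.15 (limma adjusted p = 0.884). Six3 libraries of all 3 genotypes overlapped. In Tet tcKO, replicates 1 and 2 (96.4 and 94.4 CPM) lay above all Cre- and tHet libraries. The overlap of Tet tcKO with them therefore rests on replicate 3 (58.8 CPM), where CT010467.1 held 287246 CPM and lowers all other values. Six3 was not examined without that gene, so the overlap is not read as a lack of change.

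Rmst, an RNA of neural progenitors and neurons that binds the transcription factor Sox2, is annotated at chr10:92071037-92165170 on the minus strand (GRCm38). It stood at 20.7, 20.7 and 22.1 CPM in Cre-, at 27.4, 33.2 and 25.8 CPM in tHet, and at 30.9, 37.9 and 26.1 CPM in Tet tcKO. The Cre- libraries lay close together and below all others. The log2FC against Cre- was 0.55 ± 0.22 (SE, limma adjusted p = 0.187), and between Tet tcKO and tHet it was 0.12, with a 95% interval of −0.34 to 0.59. Sox2 had a mean of 23.3 CPM in Cre- against 29.2 CPM in Tet tcKO, and was not called. Its Tet tcKO libraries (23.7 to 35.7 CPM) lay above all tHet libraries (15.1 to 20.9 CPM), as did those of 7.35% of all genes. The log2FC of Sox2 against tHet was 0.72 (limma adjusted p = 0.0835), also not called.

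**Figure D3:**
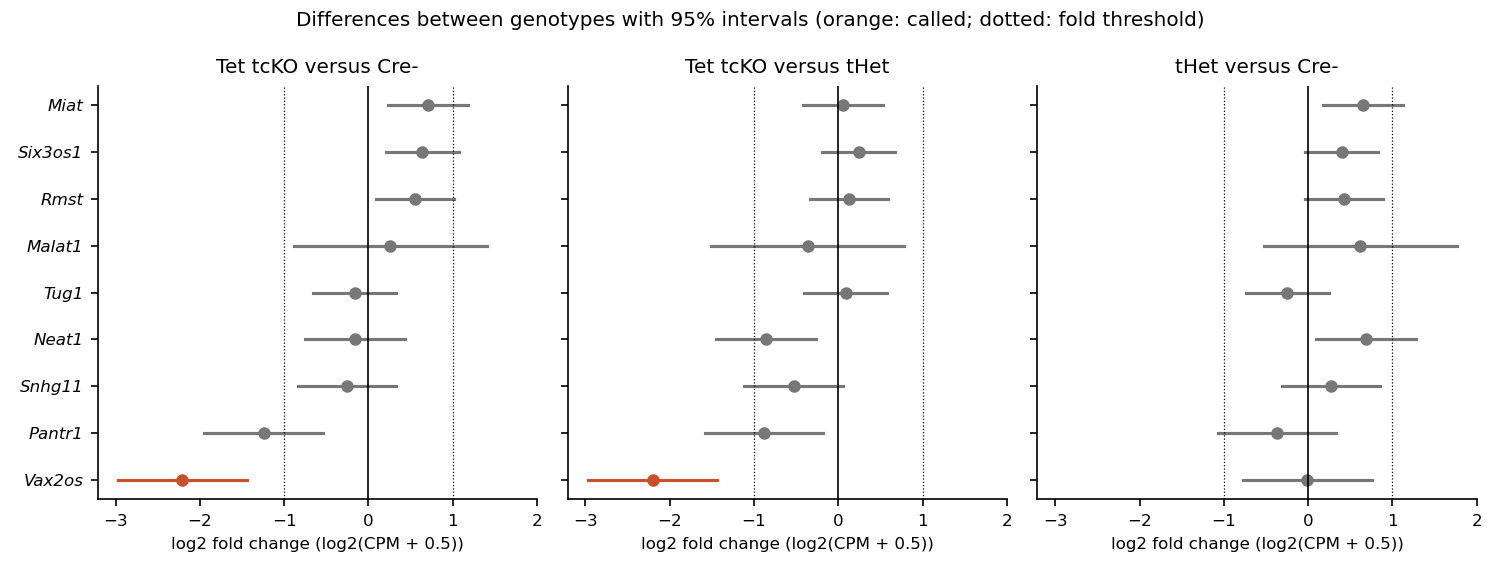
Log2 fold change of the 9 tested RNAs on the log2(CPM + 0.5) scale (points) with 95% intervals from the limma fit (bars) in the 3 comparisons between genotypes. Vax2os (orange) was called against Cre- and tHet, at −2.21 and −2.20. The intervals of Miat, Six3os1 and Rmst lie above 0 against Cre- and span 0 against tHet. Those of Pantr1 lie below 0 against both, and that of Neat1 lies below 0 against tHet. Between tHet and Cre-, the intervals of Miat and Neat1 lie above 0. Of these, only Vax2os was called.

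Pantr1 is transcribed away from Pou3f3, a POU-domain factor of neural development, whose start is 926 bases from its own (chr1:42590782-42694842, minus strand, GRCm38). It was counted with 26, 19 and 16 reads in the Cre- libraries, 17, 7 and 15 reads in tHet, and 0, 8 and 5 reads in Tet tcKO, or 1.08 to 1.53, 0.711 to 1.22 and 0 to 0.527 CPM. In Tet tcKO replicate 1, a count of 0 allows up to 0.178 CPM (3 reads, counting error only). The 3 Tet tcKO libraries had the lowest levels of all 9. The log2FC was −1.25 ± 0.34 (SE) against Cre- (limma adjusted p = 0.0279) and −0.88 against tHet (adjusted p = 0.153), so Pantr1 was not called. At an adjusted p under 0.05 with the same fold threshold it would pass against Cre-, as did 5.42% of all genes. On this scale the pseudocount of 0.5 CPM weighs heavily: the log2FC against Cre- was −2.22 with a pseudocount of 0.1 CPM and −0.85 with 1 CPM.

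Pou3f3 fell in Tet tcKO. It stood at 9.71, 8.78 and 11.5 CPM in Cre-, 6.62, 7.89 and 7.53 CPM in tHet, and 1.07, 4.88 and 3.25 CPM in Tet tcKO, without overlap between any of the genotypes. Its log2FC against Cre- was −1.72 ± 0.36 (SE, limma adjusted p = 0.00438), a call that was lost under 8 of 21 alternatives, with adjusted p-values up to 0.0361. Against tHet it was −1.31 (adjusted p = 0.0354). Pantr1 and Pou3f3 had the same order of the Tet tcKO libraries, with replicate 1 lowest and replicate 2 highest. This order is not particular to the pair. It also held for Vax2os, Miat, Malat1, Neat1, Snhg11 and the summed rod markers, while Six3os1, Rmst and Tug1 were lowest in replicate 3. Pou3f3 has been used as a marker of amacrine cells among others. The summed amacrine markers (Gad1, Gad2, Slc32a1, Slc6a9, Tfap2a and Tfap2b) overlapped, at 550 to 649 CPM in Cre- and 420 to 868 CPM in Tet tcKO, with 1 of 6 called lower. Tet tcKO replicates 1 and 2 (868 and 789 CPM) lay above all Cre- libraries and replicate 3 (420 CPM) below them. Whether a change in amacrine or other cells has a part in the fall of Pou3f3 was not tested.

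**Figure D4:**
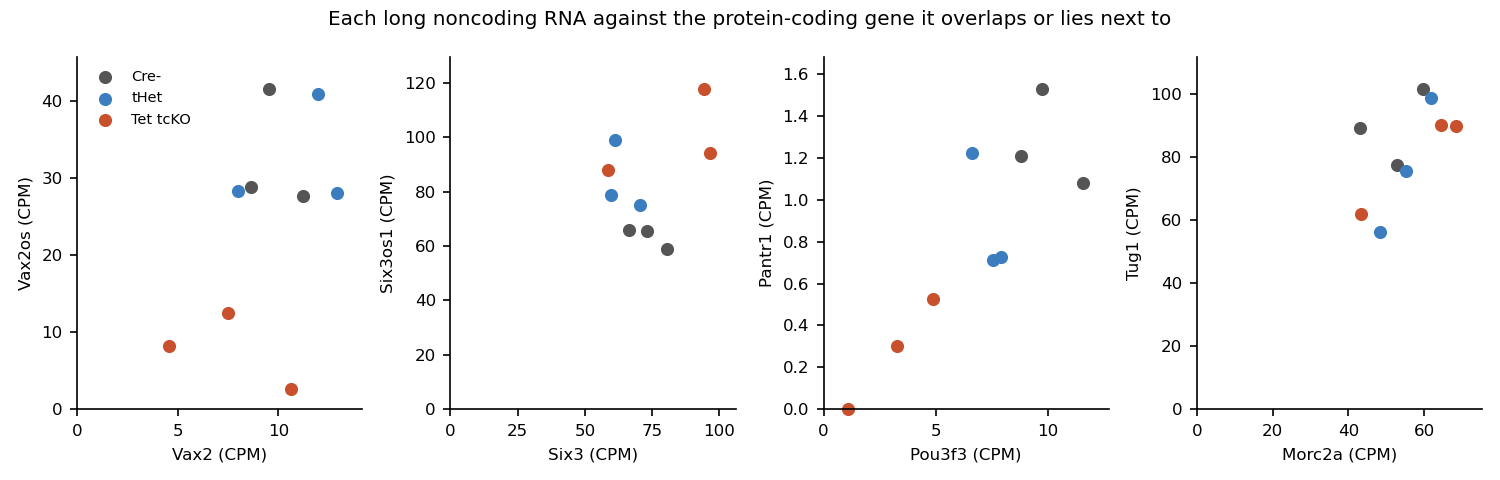
CPM of 4 long noncoding RNAs (vertical axes) against the protein-coding gene each overlaps or lies next to (horizontal axes), with 1 point per library coloured by genotype. Tet tcKO points of Vax2os lie below the rest at Vax2 levels of 4.58 to 10.6 CPM, and those of Pantr1 and Pou3f3 lie in the lower left corner.

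Of the nuclear RNAs, Miat had the largest log2FC between Tet tcKO and Cre-, without passing the test. Miat is a nuclear RNA of neurons, including those of the retina, and carries copies of a heptamer like the branch point of introns, which bind the splicing factors Sf1 and Celf3. The transcript Miat-205 (9163 bases) held 6 copies of the heptamer TACTAAC and none of its reverse complement. The stretch with the most copies, 3 in 138 bases, lies in its last exon at chr5:112217316-112217453 on the minus strand (GRCm38) and is given 5′ to 3′ from the GENCODE transcript with the copies in capitals.
Miat repeats: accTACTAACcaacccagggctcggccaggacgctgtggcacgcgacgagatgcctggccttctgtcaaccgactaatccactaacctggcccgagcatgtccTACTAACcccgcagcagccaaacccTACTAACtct

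At least 1 copy occurred in 3.9% of 131058 transcripts of 300 bases or more, and 3 copies within 300 bases occurred in transcripts of 4 of 46508 gene symbols, of which Miat is 1. Of the other RNAs of the group, only Neat1 held a copy.

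Miat stood at 24.4, 27.2 and 30.2 CPM in Cre-, at 40.9, 39.8 and 48.5 CPM in tHet, and at 32.9, 55.9 and 48.2 CPM in Tet tcKO. All 6 tHet and Tet tcKO libraries were above the Cre- libraries. The log2FC was 0.71 ± 0.23 (SE) between Tet tcKO and Cre- (limma adjusted p = 0.0762) and 0.65 between tHet and Cre- (adjusted p = 0.966), and 0.06 between Tet tcKO and tHet, with a 95% interval of −0.42 to 0.53. Of its 9293 exonic bases, 30.4% lie under exons of other genes, most of them of Gm26953 on the opposite strand, and were not counted. Neither Sf1 nor Celf3 was called: the mean of Sf1 was 183 CPM in Cre- against 160 CPM in Tet tcKO, and that of Celf3 was 40.5 and 56.9 CPM.

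Malat1 was the most abundant RNA of the group, the fourth highest of all tested genes in Cre- by mean CPM. It lies at chr19:5795690-5802672, 22036 bases from Neat1 on the same strand (GRCm38). It stood at 7377, 17659.5 and 14701 CPM in Cre-, at 23150, 18811 and 15975 CPM in tHet, and at 10083, 20716 and 15717 CPM in Tet tcKO. All genotypes overlapped. The log2FC against Cre- was 0.26, with a 95% interval of −0.89 to 1.40, which is wide beside the threshold of 1.

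Neat1 (chr19:5824708-5845478, minus strand, GRCm38) stood at 7.12, 13.6 and 10.8 CPM in Cre-, at 16.9, 16.3 and 16.9 CPM in tHet, and at 7.42, 12.7 and 7.77 CPM in Tet tcKO. The tHet libraries lay close together and above all others, while Cre- and Tet tcKO overlapped. Its log2FC was −0.16 between Tet tcKO and Cre-, −0.85 ± 0.29 (SE, limma adjusted p = 0.0905) between Tet tcKO and tHet, and 0.69 between tHet and Cre- (adjusted p = 1), none of them called. The list of 28 tested genes for proteins and partners of paraspeckles, nuclear speckles and the other nuclear RNAs includes Sfpq, Nono, Pspc1 and Srrm2. Of these 28 genes, measured as RNA, 0 were called in any comparison in limma at both thresholds. Of all genes, 3.6% were called between Tet tcKO and Cre-, 3% between Tet tcKO and tHet, and 0.0422% between tHet and Cre-. Beside such shares, 0 of 28 is no result about the list. Their median log2FC between Tet tcKO and Cre- was 0.03 and their range −0.43 to 0.51, beside a median of 0.0012 over all genes.

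Tug1 is needed for photoreceptors in the developing retina and starts 482 bases from Morc2a, on the opposite strand with 483 shared exonic bases (chr11:3639785-3649673, minus strand, GRCm38). It stood at 89.2, 101 and 77.4 CPM in Cre-, at 75.4, 98.7 and 56.0 CPM in tHet, and at 89.7, 90.1 and 62.0 CPM in Tet tcKO. All genotypes overlapped, with a log2FC against Cre- of −0.16 and a 95% interval of −0.65 to 0.33. Morc2a stood at 43.1 to 59.7 CPM in Cre- and 43.3 to 68.4 CPM in Tet tcKO. Its 43.3 CPM came from Tet tcKO replicate 3, whose values CT010467.1 lowers. Replicates 1 and 2 (68.4 and 64.5 CPM) lay above all Cre- libraries, and Morc2a was not examined without CT010467.1.

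Snhg11, a host of small nucleolar RNAs that is abundant in neurons, is listed as protein coding in the annotation used here (chr2:158375638-158386145, plus strand, GRCm38). It stood at 262, 426 and 381 CPM in Cre-, at 419, 460 and 389 CPM in tHet, and at 200.1, 469.7 and 265 CPM in Tet tcKO. The Tet tcKO libraries spanned the whole range of the others, and the log2FC against Cre- was −0.26 (95% interval −0.84 to 0.33). Snhg11 and Malat1 were each lowest in Cre- replicate 1, tHet replicate 3 and Tet tcKO replicate 1 of their genotypes. In these libraries Xist, the RNA of the inactive X chromosome in females, stood at 1.24, 2.42 and 5.28 CPM, against 647 to 1272 CPM in the other 6. The part of this split in the levels of Snhg11 and Malat1 was not tested; each genotype had 1 such library. Of 15 other tested snoRNA host RNAs, such as Gas5 and Snhg20, 0 were called in limma, 4 lay above and 11 below 0 between Tet tcKO and Cre-, and their median log2FC was −0.21. Over all genes 3.6% were called and 50.1% lay above 0. For 7 of the 15 every Tet tcKO library was lower than all Cre- libraries and for 1 higher, beside 9.6% and 10% of all genes. These counts and the median include Tet tcKO replicate 3, where CT010467.1 lowers every other CPM value. Leaving that gene out moved the median log2FC of all tested genes from 0.0012 to 0.14. The counts for these RNAs were not repeated without it, so they are not read as a result about snoRNA host RNAs.

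Dlx6os1, which is transcribed through an enhancer between Dlx5 and Dlx6 and is known from interneurons, was at 0 to 0.208 CPM in all 9 libraries at its antisense row and at 0 reads at its second, short row. Dlx5 and Dlx6 were at most at 0.144 and 0.426 CPM. At this depth a difference between genotypes was not detectable.

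Levels of different RNAs were compared per kilobase of exon that no other gene shares. In Cre-, Malat1 stood at 2056 CPM per kilobase and Snhg11 at 42.5, above Tug1 at 10.4, Vax2os at 7.17 and Six3os1 at 6.00. The ranges of Tug1 and Vax2os overlapped, as did those of Vax2os and Six3os1. Miat followed at 4.22, Rmst at 3.26, Neat1 at 0.516, Pantr1 at 0.286 and Dlx6os1 at 0.027 CPM per kilobase, each apart from the one before. In Tet tcKO, Vax2os stood at 1.71 CPM per kilobase, which put it below Six3os1 (9.44), Miat (7.07) and Rmst (4.87) with no overlap of libraries.

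**Figure D5:**
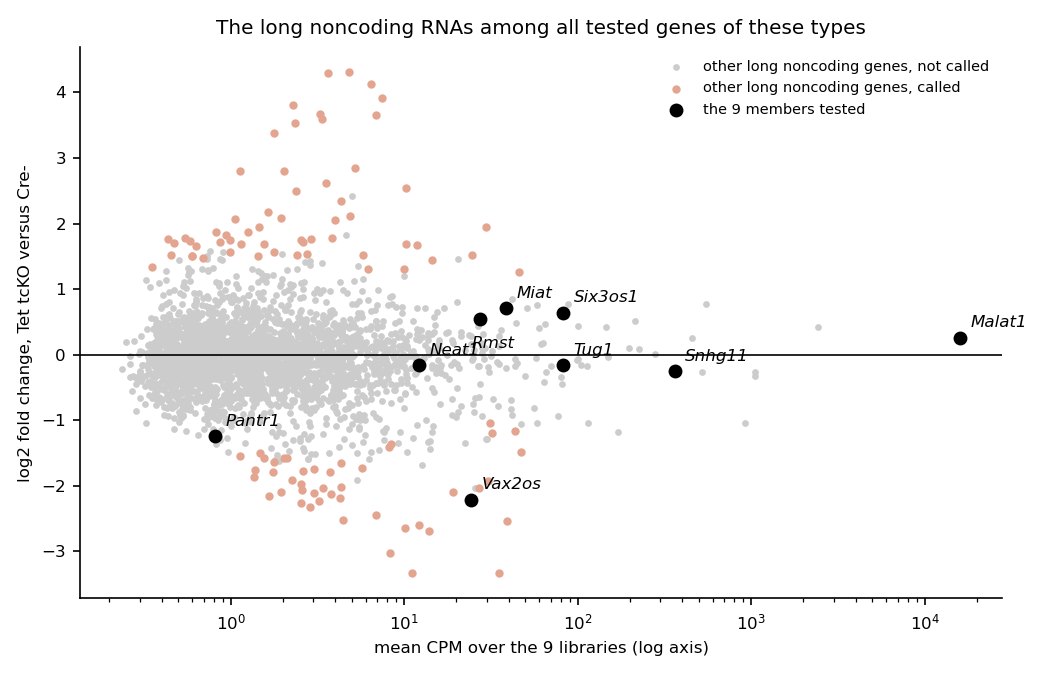
Log2 fold change between Tet tcKO and Cre- against mean CPM over the 9 libraries on a log axis, for the 9 tested RNAs (black) and 2828 other tested genes of long noncoding types (grey, or orange where called). Vax2os lies at the lower edge at −2.21, and Miat, Six3os1 and Rmst lie between 0.55 and 0.71, where 7.85% to 11.0% of the other genes are higher.

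The comparison of tHet with Cre- tests the heterozygous state together with the transgene and the breeding. None of the 9 RNAs was called in limma, edgeR or DESeq2, where limma called 0.0422% of all genes. At an unadjusted p under 0.05, limma counted 2 of the 9, Miat and Neat1, beside 4.55% of all genes. Libraries of tHet lay wholly above those of Cre- for Neat1, Miat, Six3os1 and Rmst, and for 5.78% of all genes. They lay wholly below for none of the 9 and for 5.37% of all genes. The median log2FC of the 9 RNAs was 0.40. Over the 2828 other long noncoding genes it was 0.22, and 74.4% of them were above 0, against a median of −0.0022 and 49.7% over protein-coding genes. Across scalings and with each library left out in turn, the median of the long noncoding genes lay between 0.043 and 0.39. The lowest came without Cre- replicate 1, where 54.9% of the long noncoding genes were above 0. Protein-coding genes then had a median of −0.034, with 43.1% above 0.

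Between Tet tcKO and tHet, where 3% of all genes were called, 1.39% higher and 1.61% lower, Vax2os was again the RNA called. Vax2os, Pantr1 and Neat1 were lower in every Tet tcKO library than in every tHet library, and 0 were higher in this way, beside 9.68% and 7.35% of all genes. The median log2FC was −0.36 over the 9 RNAs and −0.25 over the other long noncoding genes. Both comparisons that involve tHet use the same tHet libraries.

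In the wider lists the share of genes called was near or below the 3.6% of all genes, so the counts are no result about the lists. Of 23 other tested neural and retinal RNAs, 1 was called between Tet tcKO and Cre-, Tunar, an RNA of neural differentiation that encodes a small protein in the annotation. Tunar stood at 29.0, 20.7 and 26.5 CPM in Cre-, 21.7 to 26.2 CPM in tHet, and 10.5, 16.1 and 7.47 CPM in Tet tcKO, with all Tet tcKO libraries below the rest. Its log2FC against Cre- was −1.18 ± 0.27 (SE, limma adjusted p = 0.00779), which 6 of 21 alternatives lost, and against tHet it was −1.15 (adjusted p = 0.0110). The median of this list was 0.01. Of 19 tested chromatin-associated and nuclear RNAs, such as Firre, Kcnq1ot1 and Oip5os1, 0 were called, with a median of 0.10 and a range of −0.80 to 1.30. Of 21 tested protein genes next to or known to work with the 10 RNAs, Pou3f3 was the only one called, with a median of 0.08.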

How the data were processed

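RNA of whole P21 retinas was depleted of ribosomal RNA and sequenced from stranded libraries in 1 pool, with 3 libraries in each of 3 genotypes. The submitters' processing notes name Trim Galore 0.6.7, STAR 2.7.0f, HTSeq 0.11.2, edgeR 4.2.2 and the build mm10. The annotation release and the strand setting of the counting are not given in the sources used here. The deposited values are CPM (counts per 1000000 reads), which the authors scaled from reads per gene. Columns with the authors' own fold changes, p-values and false discovery rates were not used. Within a tolerance of 0.01, 100% of values above 0 were whole numbers of reads, between 9627927 and 21108256 per library.

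Rows were matched by gene symbol and placed on GENCODE M21 (GRCm38). limma 3.58.1 (R 4.3.3, eBayes with trend) was fitted to log2(CPM + 0.5) of all 9 libraries, for genes that reached 0.5 CPM in 3 or more libraries, with 1 mean per genotype and Benjamini-Hochberg adjustment over 21330 genes. Fold changes on this scale understate those of low genes. The edgeR 4.0.16 quasi-likelihood test on the recovered reads called 744, 608 and 1 genes between Tet tcKO and Cre-, Tet tcKO and tHet, and tHet and Cre-, against 768, 640 and 9 in limma. DESeq2 1.42.0, other pseudocounts, filters, scalings and thresholds, and leaving out each library were the alternatives. The code was tested on simulated data. Named genes were the 10 RNAs, called genes of the lists, neighbours whose starts or exons lie near those of the RNAs, and the 3 genes nearest in pattern to Vax2os; Sox2, Sf1 and Celf3 were named for their known binding. Another rod marker is not reported here. The RNAs and lists were chosen with earlier results of these data known. Libraries of a genotype pool 2 animals each, and p-values measure the spread between such pools. Sequences are from RefSeq (GRCm38.p6) and GENCODE M21, and no promoter window was used for Neat1, Rmst and Pantr1.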

Additional observations from a re-analysis of the deposited data

How the results depend on the processing

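Vax2os kept its direction against Cre- and tHet under all 21 alternatives, with a log2FC of −2.65 to −1.62 and −2.64 to −1.61. Its limma call was lost in both comparisons without Tet tcKO replicate 3, so that 0 RNAs were called, and against tHet also with CT010467.1 left out, where 0 were called. With each library left out in turn, 0 to 1 of the RNAs were called in each of these comparisons. At an adjusted p under 0.05, 2 were called against Cre-, Vax2os and Pantr1, beside 5.42% of all genes. In a fit chosen after seeing the data, with the Xist level (under 100 CPM or not) as a term, the log2FC values were unchanged, since each genotype has 1 library of low Xist, and 2, 1 and 0 RNAs were called (Vax2os and Pantr1 against Cre-, Vax2os against tHet) and 1389, 1471 and 118 of all genes. limma then used 566 degrees of freedom, against 20.1 without the term, with 5 residual ones, so these calls are not read as support. None was called between tHet and Cre- under any alternative. Small differences changed sign. With CT010467.1 left out, Tug1 was at 0.00077 between Tet tcKO and Cre-, and Vax2os at 0.0101 between tHet and Cre-. With libraries left out in turn, the log2FC between Tet tcKO and Cre- ran from −0.12 to 0.54 for Malat1, −0.41 to 0.0382 for Neat1, −0.60 to 0.0159 for Snhg11 and −0.26 to 0.0168 for Tug1. Between Tet tcKO and tHet it ran from −0.12 to 0.29 for Tug1, −0.11 to 0.27 for Miat and −0.0118 to 0.25 for Rmst. Between tHet and Cre- it ran from −0.19 to 0.18 for Vax2os, −0.17 to 0.0673 for Tunar, −0.12 to 0.14 for Grtp1 and −0.50 to 0.0282 for Gm16055. The cause of these changes was not tested.

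Over all genes, DESeq2 called 1145, 1046 and 40 in the 3 comparisons, against 768, 640 and 9 in limma. Whether the replicate numbers pair the libraries could not be settled. Same-numbered libraries correlated at −0.35 to 0.56 in their deviations from the genotype means. Their mean correlation was 0.111, against −0.0515 for other pairs, and 5 of 9 libraries correlated best with their own number. With a replicate block, 1, 1 and 0 of the RNAs were called, and 1127, 1125 and 40 of all genes. With 3 libraries a genotype, and at the few reads of Pantr1 and Dlx6os1, small differences were not detectable.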
